A study of Mus musculus with 15 samples.

Results

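The imprinted genes described here are 36 genes listed by symbol, chosen with earlier results of these data known. All of them were found among the 20610 genes of the deposited table of TPM, a level scaled to transcript length and library total. They were followed across 15 polyA RNA-seq libraries from cortical cells isolated with magnetic beads at postnatal day 28 from male wild-type mice. There were 5 libraries of neurons, 5 of astrocytes and 5 of microglia, and no allele, transgene or treatment set the groups apart. No strain is named. Because the labels do not say which animal gave which library, p-values reflect the spread between libraries, which may be technical. The members lie at 17 loci and fall into 17 paternally expressed genes, 14 maternally expressed genes and 5 whose expressed allele depends on the isoform or the tissue, as known from mouse genetics.

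An imprinted gene is transcribed mainly from the chromosome inherited from one parent. The mark that parts the alleles is DNA methylation laid down at CpG dinucleotides in the egg or the sperm, and it is kept through the divisions of the embryo. Many imprinted genes control growth, placental function and behaviour, and in the brain several differ between neurons and glia in which allele is used. Gene-level TPM gives the sum over both alleles and all isoforms, so the parental origin of a transcript was not measured here.

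Promoters are shown for 4 paternally expressed loci whose levels are described in detail, because CpG sites in such windows can carry the imprint. Each window runs from 250 bases before to 50 bases after a RefSeq start (GRCm38.p6), is printed 5′ to 3′ on the gene's own strand, and has its CpG sites in capitals. The Usp29 window lies at chr7:6730333-6730632 (plus strand), the Snrpn window, of 4 the one richest in CpG, at chr7:60005150-60005449 (minus), the Nnat window at chr2:157559828-157560127 (plus) and the Ndn window at chr7:62348027-62348326 (plus).
Usp29: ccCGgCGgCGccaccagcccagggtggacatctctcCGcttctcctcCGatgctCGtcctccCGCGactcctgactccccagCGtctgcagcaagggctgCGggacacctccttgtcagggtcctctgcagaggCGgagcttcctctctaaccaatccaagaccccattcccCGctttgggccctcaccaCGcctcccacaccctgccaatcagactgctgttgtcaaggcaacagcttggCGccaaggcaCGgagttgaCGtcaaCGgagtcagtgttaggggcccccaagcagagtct
Snrpn: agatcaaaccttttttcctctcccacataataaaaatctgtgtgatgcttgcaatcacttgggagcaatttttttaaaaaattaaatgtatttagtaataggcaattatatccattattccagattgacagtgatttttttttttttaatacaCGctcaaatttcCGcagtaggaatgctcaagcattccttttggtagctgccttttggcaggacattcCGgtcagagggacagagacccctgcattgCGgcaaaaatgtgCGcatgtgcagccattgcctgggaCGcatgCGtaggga
Nnat: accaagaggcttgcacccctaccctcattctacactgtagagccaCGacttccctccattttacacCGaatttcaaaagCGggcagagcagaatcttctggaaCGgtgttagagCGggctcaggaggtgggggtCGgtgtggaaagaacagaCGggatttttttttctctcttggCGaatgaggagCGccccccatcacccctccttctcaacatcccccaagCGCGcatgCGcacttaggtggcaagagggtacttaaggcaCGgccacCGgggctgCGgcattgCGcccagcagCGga
Ndn: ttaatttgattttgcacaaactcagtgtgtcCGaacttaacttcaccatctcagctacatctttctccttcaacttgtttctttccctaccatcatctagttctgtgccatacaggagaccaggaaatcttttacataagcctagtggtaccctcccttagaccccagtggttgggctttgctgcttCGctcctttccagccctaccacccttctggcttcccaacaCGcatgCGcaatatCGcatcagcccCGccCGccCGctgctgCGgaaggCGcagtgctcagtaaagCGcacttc

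The Usp29 window overlaps that of Peg3, which is transcribed the other way. They share 263 bases, and in GENCODE vM21 (mm10) 146 bases lie between the starts of the 2 genes. The windows hold 17 CpG sites for Usp29, 7 for Snrpn, 17 for Nnat and 11 for Ndn. As many CpG sites or more were present in 31.4%, 52.1%, 31.4% and 41.4% of all 32851 promoter windows. Across the 47 windows of the 30 members with an entry the median was 16 CpG sites, against 7 in all windows. The windows of maternally expressed members had a median of 21 and those of paternally expressed members 12. A search for the NRF1 core GCATGCGC on both strands, chosen after the sequences had been seen and counting overlapping matches, found 2 overlapping matches in the Nnat window and 1 in the Ndn window. No other window of a member held it, and 2.71% of all windows did. Entries for Cdkn1c, Impact, Nap1l4, Peg10, Sgce and Trappc9 were not among the promoters used.

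The isolates carried the transcripts of their labelled cells together with those of others, and in the neuron libraries endothelial markers summed far above neuronal ones. The 18 pan-neuronal markers summed to 1745 to 3445 TPM in neuron libraries, 303 to 585 in astrocytes and 35.3 to 263.5 in microglia. The 16 astrocyte markers reached 23679 to 27294 TPM in astrocytes, and the 18 microglia markers 90543 to 138850 in microglia. Endothelial markers (13 genes) summed to 28185 to 40984 TPM in neuron libraries, 2042 to 2666 in astrocytes and 374 to 782 in microglia, and this sum exceeded the pan-neuronal sum in every neuron library. Mural cell markers (11 genes) summed to 3028 to 5648, 1935 to 2638 and 109 to 276 TPM in the same order. Oligodendrocyte markers (12 genes) differed most between libraries of one kind, at 221 to 10389 TPM in neurons, against 469 to 3831 in astrocytes and 255 to 69938 in microglia, with microglia libraries 1 and 2 the highest. No marker in these lists was at 0 in all libraries of a cell type. Whether these other cells contributed to the levels of imprinted genes was not tested, and fewer cells of a type cannot be told apart from less RNA per cell. A level called highest in neurons below is that of the neuron libraries with all the cells they held.

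**Figure D1:**
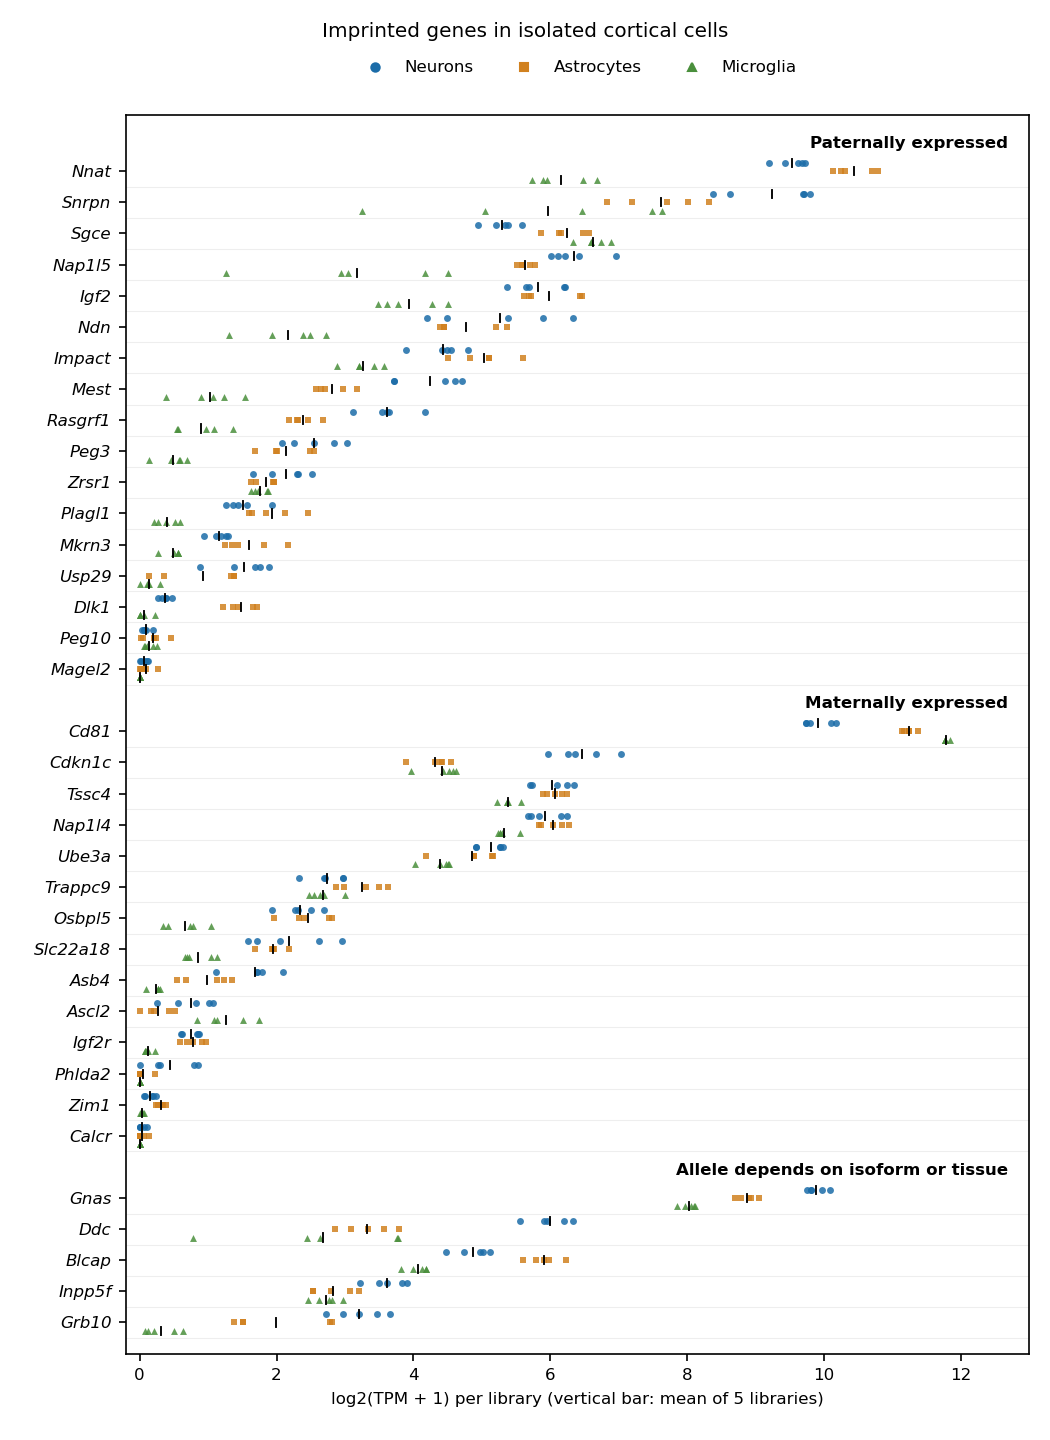
Level of each of the 36 imprinted genes as log2(TPM + 1), one point per library and a vertical bar for the mean of 5 libraries, with neurons, astrocytes and microglia on separate lines and genes ordered within each parental class. Nnat, Snrpn, Cd81 and Gnas lie far to the right, and Magel2, Calcr, Phlda2, Zim1 and Peg10 stay near 0 in all cell types.

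The paternally expressed genes were, for the most part, lower in microglia than in the other cells. A gene was called different when its adjusted p (limma on log2(TPM + 1), Benjamini-Hochberg) fell below 0.05 and the log2 difference reached 1 in either direction. The fit took in the 13351 genes that 5 or more libraries held at 1 TPM or above. By the annotation 18 of the 36 members lie on chromosome 7. Of the 36 members 30 passed the filter on low values, namely 15 of 17 paternally expressed, 10 of 14 maternally expressed and all 5 isoform- or tissue-dependent genes. Between neurons and microglia 18 members were higher in neurons and 2 lower (background over all genes tested, 29.5% higher and 9.74% lower). Of the 18, 11 were paternally expressed, 4 maternally expressed and 3 of the dependent class. Between astrocytes and microglia 16 were higher in astrocytes, 12 of them paternally expressed, and 0 lower (background 32.3% higher and 10.2% lower). At an unadjusted p below 0.05 without the size limit 3 were lower in astrocytes, namely Ascl2, Cd81 and Sgce, whose adjusted p was also below 0.05 and whose log2 differences lay inside the limit. Under median-of-ratios scaling all 3 were called lower in astrocytes (background 17.1%). The share over all genes at the unadjusted rule was not counted.

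Between neurons and astrocytes 7 members were higher in neurons and 3 lower (background 12.9% higher and 12.7% lower). The higher ones were Snrpn, Mest, Rasgrf1, Cdkn1c, Gnas, Ddc and Grb10, and the lower ones Dlk1, Blcap and Cd81. Without astrocyte library 3 Cd81 was the 1 member called lower, since Blcap fell under the size limit and Dlk1 was not tested. Over all genes 1433 of the 13148 tested in that setting were lower. The same 7 genes were also higher in neurons than in microglia, so 7 members were highest in neurons by both tests (background 9.58%). The part of the endothelial cells held by the neuron libraries in these levels was not tested. Blcap and Dlk1 were called higher in astrocytes than in both other cell types (background 10.2%), and 0 members were called higher in microglia than in both (background 7.42%). Dlk1 entered the test only through its astrocyte libraries, so the direction of its calls was set by the filter. At an unadjusted p below 0.05 without the size limit 3 members, Ascl2, Cd81 and Sgce, were higher in microglia than in both. The share over all genes at that looser rule was not counted. The 2 comparisons with neurons share the neuron libraries and those with microglia share the microglia libraries.

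The median log2 difference of the 15 paternally expressed members tested was 1.89 for neurons minus microglia, against 0.48 for all genes tested. For astrocytes minus microglia it was 1.64, against 0.57, and for neurons minus astrocytes 0.30, against -0.03. The 10 maternally expressed members tested had medians of 0.70, 0.63 and 0.10 in the same 3 comparisons, closer to those of all genes. Members that passed the filter through a high level in one cell type had to differ, so these medians describe the genes measured and support nothing further. Median-of-ratios scaling lowered the median of all genes by 0.51 for neurons minus microglia and by 0.54 for astrocytes minus microglia, and its counts of members higher were 15 (background 19.9%) and 13 (background 19.6%).

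**Figure D2:**
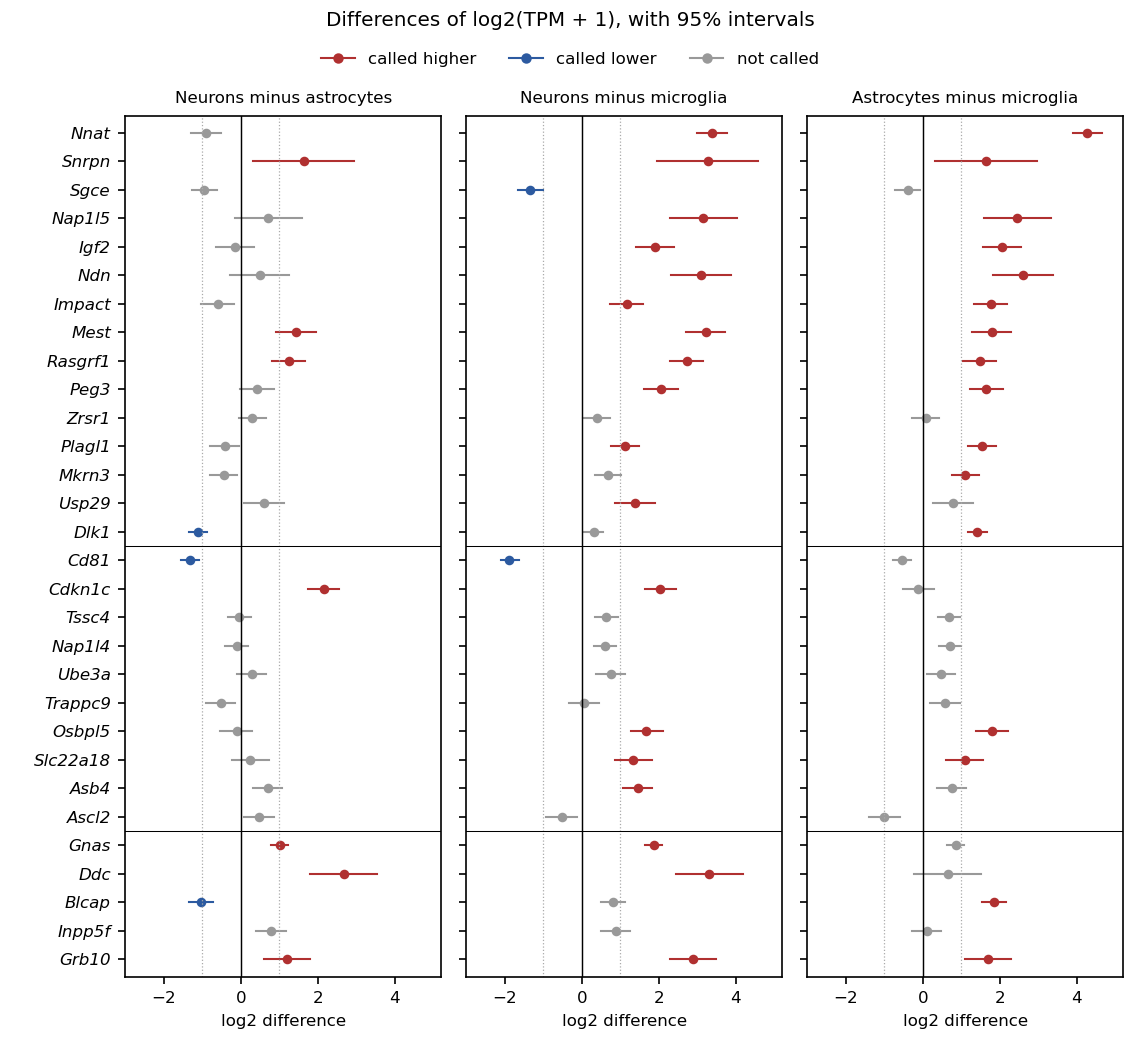
Log2 differences with 95% intervals for the 30 imprinted genes tested, in neurons minus astrocytes, neurons minus microglia and astrocytes minus microglia, with horizontal rules between the paternal, maternal and dependent classes and dotted lines at a difference of 1 in either direction. Nnat shows the largest difference from microglia in both panels, at 3.38 and 4.28, while Sgce and Cd81 are the 2 genes called lower in neurons than in microglia.

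Against microglia the summed levels of the 2 parental classes parted, with the paternal sum higher in neurons and astrocytes and the maternal sum lower. The class of a gene was taken from mouse genetics, and its allele use in these cells was not measured. For the 17 paternally expressed genes the sum was 1690.3 ± 229 TPM in neuron libraries, 1892 ± 251 in those of astrocytes and 316 ± 79.4 in those of microglia (mean ± SD, n = 5 each). The 14 maternally expressed genes summed to 1238 ± 200.3, 2617 ± 171 and 3662 ± 88.8 TPM. Few genes made these sums. Nnat and Snrpn gave 44.2% and 38.8% of the paternal sum in neurons, and Nnat alone 74.5% in astrocytes. Cd81 gave 78.3% of the maternal sum in neurons, 92.4% in astrocytes and 96.5% in microglia. Without Cd81 the other 13 maternally expressed genes summed to 269 ± 57.5, 198 ± 24.1 and 130 ± 10.7 TPM, highest in neurons and lowest in microglia.

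**Figure D3:**
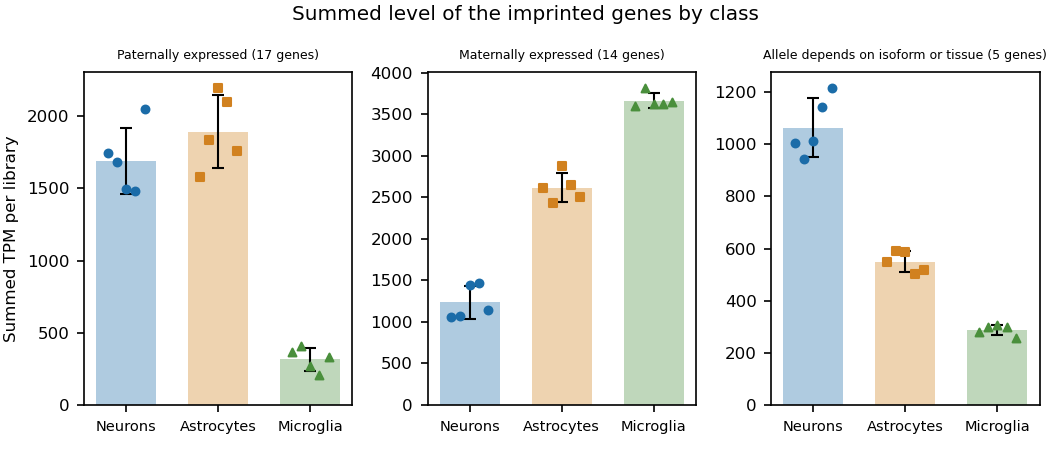
Summed TPM of the 17 paternally expressed, 14 maternally expressed and 5 isoform- or tissue-dependent imprinted genes, with one point per library, bars for the mean of 5 libraries and error bars for the SD. All 5 microglia libraries lie at or below 407.3 TPM for the paternal sum and at or above 3601.7 TPM for the maternal sum, which Cd81 makes up.

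Nnat (ENSMUSG00000067786, chr2:157560078-157562522, mm10), which encodes neuronatin, a small membrane protein of the endoplasmic reticulum, was the most abundant paternally expressed gene by mean level in neurons and astrocytes. It had 687, 589, 792, 824 and 843 TPM in neuron libraries 1 to 5, 1119, 1268, 1766, 1673 and 1215 in astrocytes, and 58.8, 61.3, 88.1, 52.5 and 101.7 in microglia. All astrocyte libraries lay above all neuron libraries, and all of those above all microglia libraries. The log2 difference from microglia was 3.38 ± 0.18 (SE) for neurons (adjusted p = 2.47e-11) and 4.28 ± 0.18 for astrocytes (adjusted p = 7.29e-13). Neurons minus astrocytes gave -0.90 (adjusted p = 0.000471), under the size limit, and -1.08 with quantile normalization.

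Snrpn (ENSMUSG00000102252, chr7:59982495-60140219), which encodes SmN, a core protein of the spliceosome in the brain, varied most between libraries among the abundant members. It had 837, 887, 395, 333 and 825 TPM in neuron libraries, 207, 320.5, 113, 145 and 257 in astrocytes, and 179, 197, 32.1, 8.47 and 87.2 in microglia. Libraries 3 and 4 were the lowest in each cell type, and the astrocyte and microglia ranges overlapped. Snrpn was called higher in neurons than in microglia (log2 difference 3.27 ± 0.63, adjusted p = 0.000167), and this held within libraries 1, 2 and 5 and within libraries 3, 4 and 5. Its higher level in neurons than in astrocytes (1.63, adjusted p = 0.0361) and in astrocytes than in microglia (1.64, adjusted p = 0.0264) lost its call in 10 and 7 of 26 alternative settings. Without astrocyte library 3 the first had an adjusted p of 0.088, and without microglia library 4 the second was 0.96 (adjusted p = 0.0657). The overlapping Snurf row, which shares exons with Snrpn on the same strand, was erratic (0 to 59.3 TPM), so the split of reads between both is uncertain.

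The levels of Snrpn followed the summed excitatory neuron markers library by library. This relation was noticed in the data and carries no test. The 11 excitatory markers, led by Nrgn, summed to 1259, 1273, 492, 460 and 1189 TPM in neuron libraries 1 to 5, to 308, 478, 132, 174 and 362 in astrocytes, and to 152, 170, 22.0, 10.1 and 119 in microglia. The order of the 5 libraries by Snrpn was the order by this sum in all 3 cell types, and no other member had that for this list or for the 5 other marker lists compared. The oligodendrocyte sum came close to the Snrpn order. It differed only by exchanging libraries 3 and 4 in neurons and in astrocytes, and libraries 1 and 2 in microglia. The pan-neuronal sum had the Snrpn order in astrocytes and microglia and not in neurons. The part of any of these cells in the Snrpn level was not tested. Snrpn per unit of this sum was 0.665 to 0.803 in neurons, 0.671 to 0.856 in astrocytes and 0.731 to 1.46 in microglia. Snrpn itself ranged 2.66-fold between neuron libraries, 2.83-fold between astrocyte libraries and 23.3-fold between microglia libraries.

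**Figure D4:**
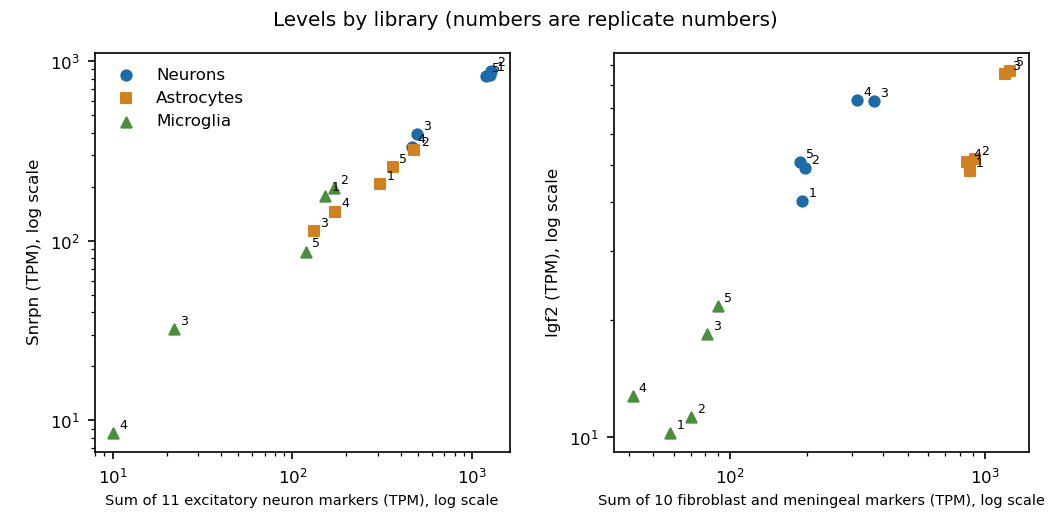
Level of Snrpn against the sum of 11 excitatory neuron markers (left), and of Igf2 against the sum of 10 fibroblast and meningeal markers (right), both axes logarithmic in TPM, one point per library with its replicate number. Snrpn and the excitatory sum run together from microglia library 4 at 8.47 TPM to neuron library 2 at 887 TPM, whereas neurons and astrocytes overlap in Igf2 and not in the fibroblast and meningeal sum, which overlaps once Igfbp2 is left out (122 to 255 TPM in neurons and 196 to 267 in astrocytes).

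Ndn and Nap1l5 were also higher in neurons and astrocytes than in microglia. Ndn encodes necdin, a MAGE-family protein of postmitotic neurons. It had 21.6, 17.4, 40.7, 58.6 and 79.8 TPM in neuron libraries, 36.1, 40.4, 20.8, 20.9 and 19.9 in astrocytes, and 4.21, 5.60, 2.83, 1.47 and 4.62 in microglia. Neurons and astrocytes overlapped (log2 difference 0.49, adjusted p = 0.275) while all microglia libraries were lower (3.10 ± 0.37 for neurons minus microglia, adjusted p = 7.31e-07). Without libraries 1 and 2 of every cell type Ndn was called higher in neurons than in astrocytes (1.44, adjusted p = 0.0026), while without those numbered 3 and 4 the difference was 0.02 (adjusted p = 0.974). Nap1l5, of the nucleosome assembly protein family, had 68.2, 63.5, 85.2, 73.7 and 123.8 TPM in neurons, 51.1, 53.9, 44.8, 46.9 and 47.8 in astrocytes, and 16.9, 21.6, 6.72, 1.39 and 7.27 in microglia. Its neuron and astrocyte libraries did not overlap, but their difference did not pass the test (0.71, interval -0.16 to 1.58, adjusted p = 0.157). The fit shares its estimate of spread over all cell types, so this p-value also reflects the microglia libraries. Their SD was 76.5% of the mean, against 29.3% in neurons and 7.33% in astrocytes.

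Microglia library 4 was the lowest microglia library for 11 of the 30 members tested. Library 1 was also counted lowest for 11, among them Dlk1, which was at 0 in libraries 1, 2 and 4 alike. Library 4 also had the lowest pan-neuronal sum (35.3 TPM, against 227, 263.5, 58.2 and 183 in libraries 1, 2, 3 and 5). It was lowest for Snrpn, Ndn, Nap1l5, Nap1l4, Mest, Peg3, Plagl1, Mkrn3, Usp29, Nnat and Ddc. Microglia library 1, counted lowest for as many members, had the second highest pan-neuronal sum. Microglia library 4 was also the highest of its kind for 6 members. Larger counts were seen in the other cell types. Neuron library 2 was lowest of its kind for 17 members, with the lowest pan-neuronal sum there (1745 TPM). Astrocyte library 2 was lowest of its kind for 15, with the highest pan-neuronal sum there (585 TPM). The same counts over all genes tested were not made. The part of neuronal RNA in these microglia levels was not tested.

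Mest and Rasgrf1 were highest in neurons in every comparison. Mest, which encodes an α/β-hydrolase-fold protein, had 12.2, 12.2, 23.4, 25.3 and 21.1 TPM in neuron libraries, 6.85, 4.95, 5.53, 8.06 and 5.25 in astrocytes, and 1.90, 1.10, 0.86, 0.31 and 1.35 in microglia. The 3 groups did not overlap, and the log2 difference was 1.43 ± 0.24 from astrocytes (adjusted p = 7.54e-05) and 3.22 ± 0.24 from microglia (adjusted p = 1.90e-09). Rasgrf1, a calcium-responsive exchange factor for Ras, averaged 11.6 ± 3.36 TPM in neurons, against 4.26 ± 0.719 in astrocytes and 0.916 ± 0.472 in microglia (SD, n = 5 each). Its groups did not overlap either (1.24, adjusted p = 5.76e-05, and 2.72, adjusted p = 1.88e-09, for neurons minus astrocytes and minus microglia).

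Peg3 and Usp29, the pair with overlapping promoter windows, were both low and both called higher in neurons than in microglia. Peg3, a zinc finger protein, had 3.79, 3.23, 6.19, 4.86 and 7.20 TPM in neuron libraries, 3.02, 2.23, 4.63, 4.87 and 2.96 in astrocytes, and 0.62, 0.50, 0.38, 0.10 and 0.49 in microglia. Usp29, of the ubiquitin-specific protease family, had 2.40, 0.84, 1.60, 2.23 and 2.72, then 0.28, 0.10, 1.61, 1.53 and 1.61, and then 0.23, 0.09, 0.10, 0 and 0.08 TPM in the same order. Peg3 was the higher of the pair in all 15 libraries, with a ratio of mean levels of 2.58 in neurons, 3.45 in astrocytes and 4.18 in microglia. Against microglia, Peg3 was called higher in neurons (2.06, adjusted p = 9.45e-08) and astrocytes (1.65, adjusted p = 1.35e-06). Usp29 was called higher in neurons (1.39, adjusted p = 7.31e-05, and 0.98 with quantile normalization) and not in astrocytes (0.79, adjusted p = 0.00843), where libraries 1 and 2 were low. Without all libraries numbered 1 and 2 the second difference was 1.29. Zim1, a maternally expressed zinc finger gene of the same domain, stayed at or below 0.30 TPM in all libraries.

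Igf2, the fetal growth factor, was at similar levels in neurons and astrocytes. It had 40.4, 49.1, 72.8, 73.3 and 50.8 TPM in neuron libraries, 48.2, 51.8, 85.3, 50.9 and 87.2 in astrocytes, and 10.2, 11.2, 18.4, 12.7 and 21.7 in microglia. Neurons and astrocytes overlapped (log2 difference -0.16, interval -0.65 to 0.33), and both lay above microglia (1.89, adjusted p = 1.20e-06, and 2.05, adjusted p = 3.91e-07). In adult brain Igf2 is known mainly from meninges, choroid plexus and vessels. The 10 fibroblast and meningeal markers summed to 188 to 367 TPM in neurons, against 853 to 1258 in astrocytes and 41.4 to 89.5 in microglia. Without Igfbp2, which led that list in astrocytes, the sums were 122 to 255, 196 to 267 and 19.9 to 40.5 TPM. The 2 libraries highest in Igf2 within each cell type were also the 2 highest in the full fibroblast and meningeal sum. The 10 ependymal and choroid plexus markers summed to 519 to 914 TPM in neurons, against 717 to 1334 in astrocytes and 36.0 to 124 in microglia. The part of these cells in the Igf2 level was not tested.

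Impact, which restrains the stress kinase Gcn2 and so affects translation, averaged 21.0 ± 4.62 TPM in neurons, against 32.7 ± 9.61 in astrocytes and 8.69 ± 1.71 in microglia (SD, n = 5 each). It was called higher than in microglia in both (1.17, adjusted p = 5.78e-05, for neurons and 1.77, adjusted p = 4.10e-07, for astrocytes), and the first fell under the size limit with median-of-ratios scaling (0.60) and quantile normalization (0.78). Plagl1, a zinc finger factor that slows the cell cycle, averaged 1.89 TPM in neurons, against 2.92 in astrocytes and 0.320 in microglia. Its difference from microglia was 1.12 for neurons and 1.54 for astrocytes, and the first fell under the limit with median-of-ratios scaling (0.88), with quantile normalization (0.46) and without libraries 3 and 4 (0.89), as the second did with quantile normalization (0.91). Mkrn3, a RING finger protein known for its part in the timing of puberty, averaged 1.24, 2.13 and 0.408 TPM and was called only for astrocytes over microglia (1.11), which was 0.97 without astrocyte library 3, 0.81 without all libraries numbered 3 and 4, 0.80 with median-of-ratios scaling and 0.44 with quantile normalization.

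Dlk1, a Notch-like membrane protein, was the paternally expressed gene called higher in astrocytes than in both other cell types. It had 0.31, 0.20, 0.26, 0.39 and 0.30 TPM in neuron libraries, 1.57, 2.27, 1.71, 1.33 and 2.15 in astrocytes, and 0, 0, 0.04, 0 and 0.17 in microglia. The astrocyte libraries lay above all others (-1.11 for neurons minus astrocytes, adjusted p = 3.09e-07, and 1.42 for astrocytes minus microglia, adjusted p = 4.60e-09). It passed the filter through exactly its 5 astrocyte libraries, so the direction of its calls was set by the filter and its p-values add no support. It was not tested where an astrocyte library was left out. With quantile normalization the first difference was -0.99.

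Sgce (ENSMUSG00000004631, chr6:4674350-4747207) was the paternally expressed gene that went the other way. It encodes ε-sarcoglycan, a membrane protein whose loss causes myoclonus-dystonia in people. It had 36.0, 29.8, 39.3, 47.3 and 40.9 TPM in neuron libraries, 69.3, 57.3, 88.4, 94.3 and 70.5 in astrocytes, and 79.5, 95.9, 106, 117 and 95.4 in microglia. All neuron libraries were below all others (-1.34 ± 0.16 for neurons minus microglia, adjusted p = 5.59e-07, and -0.95 for neurons minus astrocytes, adjusted p = 5.43e-05, under the size limit). Its neighbour Peg10, a retrotransposon-derived gene of the placenta, starts 98 bases away on the other strand and is also paternally expressed. Peg10 reached at most 0.37 TPM, and Sgce exceeded it at least 240-fold in every library. The splicing factor Zrsr1 showed no called difference (means of 3.52 TPM in neurons, against 2.60 in astrocytes and 2.39 in microglia). It overlaps exons of Commd1 on the opposite strand. Magel2, a MAGE gene beside Ndn, was at 0 in all microglia libraries and at most 0.20 TPM elsewhere.

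Cd81 (ENSMUSG00000037706, chr7:143052739-143067934), a maternally expressed tetraspanin of the cell surface, had the highest mean of the imprinted genes in all 3 cell types, close to that of Gnas in neurons. It had 853, 850.0, 1100.5, 1154 and 889 TPM in neuron libraries, 2439, 2259.8, 2650.5, 2435 and 2311 in astrocytes, and 3491, 3680.2, 3488, 3489.9 and 3514 in microglia. The groups did not overlap, and the spread in microglia was 2.36% of the mean. Neurons were lower than astrocytes (-1.33 ± 0.11, adjusted p = 2.00e-08) and than microglia (-1.88 ± 0.11, adjusted p = 8.52e-11). Astrocytes minus microglia gave -0.55 (adjusted p = 0.000284), and -1.24 under median-of-ratios scaling. Imprinting of Cd81 is known mainly from the placenta, and whether Cd81 or the other maternally expressed members are imprinted in these cells was not measured.

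Cdkn1c (ENSMUSG00000037664, chr7:143458339-143461050), the cyclin-dependent kinase inhibitor p57, was the 1 maternally expressed gene called higher in neurons than in both other cell types. It had 61.8, 75.8, 131, 101 and 81.7 TPM in neuron libraries, 20.3, 22.4, 20.3, 13.8 and 18.9 in astrocytes, and 14.7, 22.0, 22.9, 23.6 and 20.5 in microglia. All neuron libraries were above all others, while astrocytes and microglia overlapped. The log2 difference was 2.15 ± 0.19 from astrocytes (adjusted p = 3.75e-08), 2.04 ± 0.19 from microglia (adjusted p = 3.36e-08) and -0.11 for astrocytes minus microglia (interval -0.51 to 0.29). These neuron libraries also held 28185 to 40984 TPM of endothelial markers, whose part in the Cdkn1c level was not tested. Slc22a18, a membrane transporter next to Cdkn1c, averaged 3.88 ± 2.05 TPM in neurons, against 2.87 ± 0.468 in astrocytes and 0.820 ± 0.288 in microglia. It was called higher than in microglia in both (1.34 and 1.09), and neither held under median-of-ratios scaling (0.99 and 0.71) or quantile normalization (0.70 and 0.45).

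Ube3a, the ubiquitin ligase whose loss causes Angelman syndrome, is silenced on the paternal chromosome in neurons and not in glia. It had 29.3, 29.1, 37.5, 38.5 and 37.5 TPM in neuron libraries, 28.5, 17.2, 34.4, 34.8 and 28.6 in astrocytes, and 15.2, 22.0, 20.0, 21.7 and 21.3 in microglia. Neurons and astrocytes overlapped (0.28, interval -0.09 to 0.65). Neurons minus microglia gave 0.75 (adjusted p = 0.00109), under the size limit, with no overlap between their libraries. Its antisense transcript Snhg14 overlaps Ube3a exons, as genes on the opposite strand overlap exons of Igf2, Cdkn1c, Mest, Gnas, Tssc4 and Cd81, and the strand of counting is not given, so the split of reads there is uncertain.

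Osbpl5 and Asb4 were low maternally expressed genes called higher in neurons than in microglia. Osbpl5, a lipid transfer protein, had 2.82 to 5.44 TPM in neurons, against 2.91 to 6.05 in astrocytes and 0.27 to 1.07 in microglia (1.68, adjusted p = 6.15e-07, and 1.79, adjusted p = 2.43e-07). Asb4, an ankyrin repeat protein of ubiquitin ligase complexes, had 1.17 to 3.29 TPM in neurons, against 0.46 to 1.54 in astrocytes and 0.07 to 0.23 in microglia, and was called for neurons over microglia (1.45, adjusted p = 1.46e-06, and 0.87 with quantile normalization) and not for astrocytes over microglia (0.75). Tssc4, a factor of spliceosome assembly, and the histone chaperone Nap1l4 were steadier. Tssc4 averaged 65.4 TPM in neurons, against 66.2 in astrocytes and 40.9 in microglia, and Nap1l4 averaged 60.7, 65.3 and 39.3 in the same order. Neither had a called difference, although in neurons and in astrocytes both passed the adjusted p against microglia with log2 differences of 0.60 to 0.71. Trappc9, a subunit of a vesicle tethering complex, averaged 5.73, 8.74 and 5.44 TPM, also without a called difference.

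Ascl2, a transcription factor of the placenta, was low in all cell types and had its highest mean in microglia. It had 0.47, 1.01, 1.11, 0.77 and 0.19 TPM in neuron libraries, 0.12, 0.35, 0, 0.16 and 0.43 in astrocytes, and 0.79, 1.2, 1.86, 1.13 and 2.34 in microglia. Neurons and microglia overlapped, without a called difference (-0.52 for neurons minus microglia, adjusted p = 0.02). Astrocytes and microglia did not overlap (interval of the log2 difference -1.39 to -0.60, adjusted p = 0.000122). The difference between astrocytes and microglia lay just inside the size limit, and 9 alternatives put it past the limit (-1.03 to -2.46). The receptor Igf2r, which clears Igf2 and sorts lysosomal enzymes, stayed below 1 TPM in all libraries (0.52 to 0.82 in neurons, 0.50 to 0.96 in astrocytes and 0.06 to 0.17 in microglia) and was not tested. Phlda2, a regulator of placental growth, reached 0.81 TPM in neurons and 0.17 in astrocytes and was listed at 0 in microglia, and the calcitonin receptor Calcr reached 0.08, 0.10 and 0.

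Gnas (ENSMUSG00000027523, chr2:174284320-174346744), which encodes the stimulatory G protein α subunit and several imprinted variants, was the most abundant gene of the dependent class. It had 902, 859, 899, 1009 and 1089.8 TPM in neuron libraries, 481, 531, 488, 418 and 441 in astrocytes, and 251, 266, 277, 275 and 229.7 in microglia. The 3 groups did not overlap. Neurons were higher than microglia (1.87 ± 0.11, adjusted p = 4.56e-11). Neurons minus astrocytes gave 1.01 ± 0.11 (adjusted p = 3.39e-07), which lay at the size limit and was 0.96 to 0.99 without any one of neuron libraries 4 and 5 and astrocyte libraries 4 and 5, and 0.81 with quantile normalization.

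Ddc and its neighbour Grb10 were both highest in neurons. Ddc, the enzyme that makes dopamine and serotonin from their precursors, had 61.2, 46.2, 58.9, 80.1 and 72.4 TPM in neuron libraries, 7.48, 6.26, 12.8, 10.8 and 9.11 in astrocytes, and 12.6, 12.7, 5.22, 0.71 and 4.44 in microglia. All neuron libraries lay above all others (2.67 ± 0.41 from astrocytes, adjusted p = 3.02e-05, and 3.31 ± 0.41 from microglia, adjusted p = 1.30e-06). Microglia libraries 1 and 2 were the highest of their kind, and without them astrocytes were called higher than microglia (1.37, adjusted p = 0.00183, against 0.65 with all libraries). Tyrosine hydroxylase (Th), which supplies the substrate of Ddc in dopamine synthesis, averaged 1.97 TPM in neurons, against 0.528 in astrocytes and 0.708 in microglia. Grb10, an adaptor that dampens insulin and IGF receptor signalling and is transcribed from the paternal allele in neurons but from the maternal allele in most other tissues, had 6.81, 5.61, 11.6, 8.23 and 10.1 TPM in neurons, 1.86, 1.60, 6.04, 5.86 and 1.85 in astrocytes, and 0.16, 0.06, 0.41, 0.55 and 0.09 in microglia. Astrocyte libraries 3 and 4 overlapped the neurons (1.21 ± 0.28, adjusted p = 0.00158), and all microglia libraries were lower (2.90 ± 0.28, adjusted p = 6.13e-08).

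Blcap, a small membrane protein whose gene holds Nnat in an intron, was highest in astrocytes, as Nnat was by mean level. Blcap had 25.8, 21.3, 31.4, 33.9 and 30.5 TPM in neurons, 54.7, 47.8, 74.0, 62.5 and 59.2 in astrocytes, and 13.1, 14.9, 17.2, 17.3 and 16.5 in microglia. The 3 groups did not overlap (-1.04, adjusted p = 1.24e-05, for neurons minus astrocytes and 1.84, adjusted p = 3.86e-09, for astrocytes minus microglia). The first was -0.94 without neuron library 2, -0.96 without astrocyte library 3, -0.96 with median-of-ratios scaling and -0.90 with quantile normalization. Nnat exceeded Blcap 24.3- to 27.7-fold in neuron libraries, 20.5- to 26.8-fold in astrocytes and 3.04- to 6.16-fold in microglia. Inpp5f, an inositol phosphatase with an imprinted brain variant, averaged 11.4 TPM in neurons, against 6.24 in astrocytes and 5.67 in microglia, with no called difference (0.78 and 0.89 for neurons minus astrocytes and minus microglia).

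A list of 40 other genes with reported imprinting or a place in an imprinted domain had 31 in the table and 21 tested. Of these, 6 were higher and 2 lower in neurons than in astrocytes, 9 higher and 1 lower in neurons than in microglia, and 5 higher and 2 lower in astrocytes than in microglia. The shares over all genes tested were 12.9% and 12.7%, 29.5% and 9.74%, and 32.3% and 10.2%. Among those called in at least 2 comparisons the largest differences were those of Pon3, Dlx5, Atp10a, Adam23, Qpct and Slc22a2. Pon3, a paraoxonase, averaged 6.52 TPM in neurons, against 5.87 in astrocytes and 102.5 in microglia. Atp10a, a lipid flippase near Ube3a, averaged 9.28, 1.81 and 0.294 TPM, and the homeobox gene Dlx5 8.07, 0.214 and 0.046. Slc22a2, a cation transporter beside Igf2r, averaged 0.138, 3.61 and 0.136 TPM. Adam23, a membrane protein of neuronal adhesion, averaged 6.65, 12.5 and 1.19 TPM, and Qpct, a glutaminyl cyclase, 25.9, 8.79 and 5.04. Dlx5 reached at most 0.42 TPM in astrocytes and 0.07 in microglia, so it passed the filter only through its neuron libraries. Slc22a2 reached at most 0.31 TPM in neurons and 0.32 in microglia and passed only through its astrocyte libraries. The direction of their calls, which are in the counts above, was set by the filter.

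Of 15 genes that keep imprints or bind methylated DNA and chromatin, 14 were tested. In neurons 1 was higher than in astrocytes and 3 were higher than in microglia, and 4 were higher in astrocytes than in microglia. These counts were at or below the shares over all genes tested (12.9%, 29.5% and 32.3%). Uhrf1, which brings Dnmt1 to replicated DNA, averaged 3.75 ± 1.05 TPM in neurons, against 2.48 ± 0.784 in astrocytes and 0.180 ± 0.0721 in microglia (1.99, adjusted p = 1.77e-08, and 1.53, adjusted p = 4.30e-07, against microglia). Cbx5, a heterochromatin protein, averaged 32.5 ± 3.08, 26.6 ± 1.93 and 4.96 ± 2.09 TPM. The insulator factor Ctcf, named after its values were seen, averaged 87.4 ± 12.8, 36.9 ± 7.40 and 60.2 ± 4.35 TPM and was the one called between neurons and astrocytes (1.23, adjusted p = 6.74e-07).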

How the data were processed

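TPM per gene as deposited by the authors were used for 15 libraries from mouse cortex (n = 5 per cell type). The submitters' processing notes name RSEM 1.2.28, STAR 2.7.1a, DESeq2 1.36.0 and Trim Galore 0.6.4, with the mm10 build, and the annotation is not given in the sources used here. TPM keeps no read depth, so no counting error could be given. A pseudocount of 1 was added, and the 13351 genes that 5 or more libraries held at 1 TPM or above were fitted in one limma 3.58.1 model (R 4.3.3) with a mean per cell type and a variance trend. Fold changes are on the log2(TPM + 1) scale, which understates those of low genes. Tables used Python 3.11.15 and pandas 2.3.3. The fit was tested on simulated data. Coordinates and overlaps are from GENCODE vM21 (mm10), promoters from RefSeq (GRCm38.p6).

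Members and lists were chosen with earlier results of these data known, and parental classes come from general knowledge. By rule, every member is accounted for, and those called are named with values. Up to 6 genes per further list are named, with Th and Ctcf added after their values were seen. Replicate numbers are shared between cell types. Deviations from group means of libraries with one number correlated at 0.216 to 0.382 between neurons and microglia. Not every correlation passed 0.1 for astrocytes with neurons (-0.0329 to 0.233) or with microglia (-0.011 to 0.249). Libraries with different numbers were not correlated, so these values do not show that the numbers pair the libraries. The labels do not state a pairing. The alternatives comprised a smaller pseudocount (0.1), a filter of 5 TPM or none, median-of-ratios and quantile scaling, fits of 2 groups, a replicate block, no trend, each library left out, and 3 subsets added after seeing the data.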

Additional observations from a re-analysis of the deposited data

Results flagged for a closer look

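Among 81 sets of 5 libraries of one cell type with a member at 1 TPM or more, 4 held a library far from the other 4 on the log2(TPM + 1) scale, and chance flags about 1 set in 20. Ube3a was at 17.2 TPM in astrocyte library 2 (28.5 to 34.8 in the others) and at 15.2 in microglia library 1 (20.0 to 22.0 in the others). Cd81 was at 3680.2 TPM in microglia library 2 (3488 to 3514 in the others), and Nap1l4 was at 46.2 TPM in the same library (36.8 to 38.1 in the others).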

How the results depend on the processing

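None of the 46 called differences of members changed direction under the 26 alternatives, and 32 kept their call wherever they were tested. The count of members higher in astrocytes than in microglia was 16 and became 10 with at least 5 TPM required in at least 5 libraries, because 6 of them no longer entered the test. The share over all genes was 34.5% with that filter, against 32.3% in the main fit. The count lower in astrocytes was 0 and became 1 with a pseudocount of 0.1 and 3 with median-of-ratios scaling. It was 1 with quantile normalization and 1 without the microglia libraries 1 and 2. The shares over all genes in these settings were 11.3%, 17.1%, 15.3% and 9.41%, in the same order. Ascl2 was the gene gained each time, with Cd81 and Sgce under median-of-ratios scaling. With one library left out at a time the count lower in astrocytes ranged from 0 to 1, being 1 without astrocyte library 2 or 5 or microglia library 1, 2 or 4. The count lower in neurons than in astrocytes was 3 and ranged from 1 to 4 with one library left out; it was 1 without astrocyte library 3, where Blcap lost its call and Dlk1 was not tested. With one library left out at a time the count higher in neurons than in astrocytes ranged from 5 to 7 and that higher in astrocytes than in microglia from 14 to 16. In these fits 13132 to 13194 genes were tested. Of all these genes 1140 to 1399 were lower and 3982 to 4426 higher in astrocytes than in microglia. Lower in neurons than in astrocytes were 1433 to 1785 of all genes, and higher 1582 to 1783. With quantile normalization 5 members were higher in neurons than in astrocytes, and against microglia 13 were higher in neurons and 11 in astrocytes. The shares over all genes were 13.6%, 18.3% and 18.5%, in the same order. The replicate block gave the same counts as the fit without it (7 higher and 3 lower, 18 and 2, and 16 and 0 in the 3 comparisons) and changed no call of a member. Without all libraries numbered 1 and 2 the counts were 7 and 2, 19 and 2, and 18 and 0. The shares over all genes were 12.7% and 12.8%, 33.6% and 8.76%, and 37.1% and 8.99%. Without those numbered 3 and 4 the counts were 6 and 2, 15 and 2, and 13 and 0. Here the shares were 12.9% and 12.4%, 26.7% and 8.61%, and 29.5% and 8.94%. Over all genes, the calls higher in neurons than in microglia were 75.2% of the total and 55.8% under median-of-ratios scaling, and those higher in astrocytes than in microglia 76.0% and 53.4%. Scaling moved the median of all genes by up to 0.54, a pseudocount of 0.1 by up to 0.14 and dropping the filter by up to 0.28. Values below 1 TPM are limited by the unknown depth.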
